A study of Mus musculus with 10 samples.

Results

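The stretch of mouse chromosome 1 described here starts at 89.8 Mb and ends at 90.5 Mb (mm9, as the scanner files give probe positions) and is covered by 63 of the 170305 probes of an Agilent oligonucleotide array for comparative genomic hybridisation. Its middle, from the probe at 90115633 to the end of the probe at 90209508, is called the core and holds 11 probes. A further 28 probes lie proximal to the core and 24 distal to it, and these are the flanks. The interval was chosen by its measured log2 ratios, because the core was gained in 1 animal and lost in others, so the levels of the core are given as a description with no test between the groups.

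Array comparative genomic hybridisation sets the DNA of an animal, labelled with one dye, against a reference DNA labelled with another on the same probes. A log2 ratio above 0 means more signal from the animal than from the reference, and a run of neighbouring probes shifted together is read as a gain or a loss of that stretch of DNA relative to the reference. Liver DNA of 10 mice of the ZFLacZ line, originally a transgenic line, was labelled with Cy5, 1 animal per array, and the Cy3 reference was an equal mixture of DNA from adult mice of 3 strains, C57BL/6, SJL and DBA. The 5 ICSI-derived animals came from ZFLacZ testis cells kept frozen for 14 years, whose sperm were injected into oocytes of DBA x C57BL/6 females (intracytoplasmic sperm injection). The 5 naturally born controls were adult ZFLacZ progeny described as wild type, with no cross stated, and the line goes back to SJL and C57BL/6 mice. The sentence on frozen germ cells stands in the labels of all 10 animals, and was taken to apply to the ICSI-derived ones. Strain background and mode of birth therefore cannot be told apart between the groups. By their labels 3 animals of each group were male and 2 female. No age in weeks or months is stated.

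In RefSeq's gene table, which is of another build (GRCm38.p6) and was used only for names and neighbours, this part of chromosome 1 reads Dgkd, Usp40, the Ugt1a genes, Mroh2a, Hjurp, Trpm8 and Spp2. The table has 26 entries from Dgkd to Spp2, of which 16 are protein coding and 9 are Ugt1a genes. The Ugt1a locus is built from alternative first exons that are each joined to the same shared exons, and it makes UDP-glucuronosyltransferases, liver enzymes that attach glucuronic acid to drugs, hormones and waste products. Ugt1a1, the last of these genes before Mroh2a, conjugates bilirubin. Hjurp is the chaperone that brings the histone variant CENP-A to centromeres. Trpm8 is an ion channel of sensory neurons that responds to cold and menthol. The files pair no probe with a gene, so single probes are given by position and none is assigned to Ugt1a1, Hjurp or Trpm8.

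All 63 probes were well above background in both channels on all 10 arrays, each probe was spotted once, and 1 spot of the flanks carried an outlier flag on 1 array. The headers give each array's probe-to-probe spread, which was 0.17 to 0.21 on the 3 noisiest arrays (naturally born replicate 2 and ICSI-derived replicates 1 and 4) and 0.14 to 0.15 on the other 7. One array, labelled naturally born replicate 3 and male, stood apart on the sex chromosomes. Its mean log2 ratio was -0.033 on chromosome X, against -0.61 to -0.55 in the other 5 labelled males and 0.26 to 0.28 in the 4 labelled females. On chromosome Y it was -0.007, against 0.75 to 0.82 in the other labelled males and -1.57 to -1.42 in the labelled females. It thus lay between the labelled sexes on both. The group and sex differences at the core and the segment counts are given with and without it. Most other results, among them the flank tests, are given with it.

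In both groups the core mean ran from above 0 in some animals to below 0 in others. Its mean log2 ratio over the 11 probes was 0.57 in ICSI-derived replicate 1, 0.21 in replicate 2, -0.47 in replicate 3, 0.12 in replicate 4 and 0.07 in replicate 5. In the naturally born animals it was 0.20 in replicate 1, -0.21 in replicate 2, -0.41 in the array labelled replicate 3, -0.38 in replicate 4 and -0.13 in replicate 5. ICSI-derived animals thus held both the highest and the lowest of the 10 values, and every naturally born value lay between them. As a ratio on the linear scale, the core gave 1.49 times the reference in ICSI-derived replicate 1 and 0.721 times in ICSI-derived replicate 3.

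**Figure D1:**
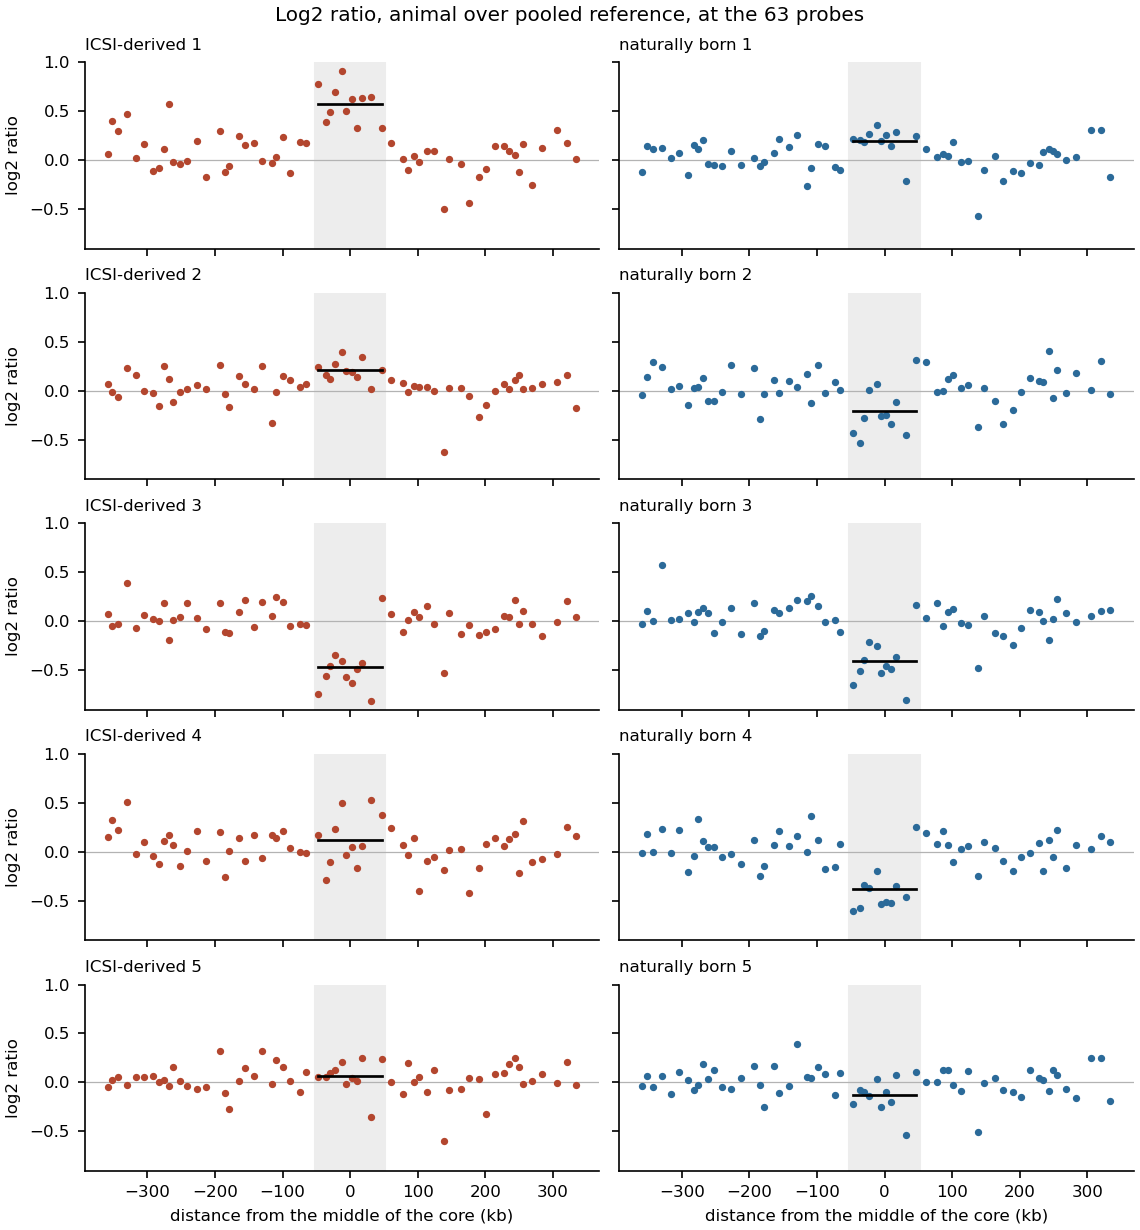
Log2 ratio of animal over pooled reference (vertical axis) at the 63 probes, placed by distance in kb from the middle of the core, with 1 panel per animal, ICSI-derived on the left and naturally born on the right. The grey band is the core and the black line its mean over 11 probes, which runs from 0.57 in ICSI-derived 1 to -0.47 in ICSI-derived 3, while the flanks lie near 0 in every panel.

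The flanks stayed near the autosomal level in every animal. The proximal flank averaged between 0.03 and 0.11 and the distal flank between -0.0095 and 0.039 over the 10 animals. Means of 11 consecutive flank probes, the same number as in the core, reached from -0.10 to 0.17 over all positions and animals. The core mean lay outside that range in 8 animals, those at 0.20 and above and those at -0.13 and below. It lay inside in ICSI-derived replicates 4 and 5.

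Relative to its own flanks, the core stood at 0.52 in ICSI-derived replicate 1, 0.19 in replicate 2, -0.49 in replicate 3, 0.08 in replicate 4 and 0.04 in replicate 5. The naturally born animals stood at 0.18, -0.25, -0.45 (the array labelled replicate 3), -0.41 and -0.14. The order of the animals was the same as for the core mean itself.

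The change from flank to core was abrupt at its proximal edge. The last probe before it (90097009 to 90097068) ranged from -0.11 to 0.18 over the animals, and the one before that (90088726 to 90088785) from -0.16 to 0.19. The first core probe (90115633 to 90115692), 18.6 kb further on, had the widest range of all 63 members. It read 0.77, 0.24, -0.74, 0.18 and 0.06 in ICSI-derived replicates 1 to 5. It read 0.22, -0.44, -0.65, -0.61 and -0.22 in naturally born replicates 1 to 5. At this probe the 4 ICSI-derived animals other than replicate 3, together with naturally born replicate 1, lay above 0 and the remaining 5 animals below it.

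At the distal edge the last of the 11 core probes did not vary with the rest. That probe (90209449 to 90209508) lay above 0 in all 10 animals, at 0.32, 0.21, 0.24, 0.38 and 0.24 in ICSI-derived replicates 1 to 5. In naturally born replicates 1 to 5 it was at 0.24, 0.31, 0.16, 0.25 and 0.11. Its range over the animals was 0.27, against 0.86 to 1.52 for the other 10 core probes and a median of 0.31 for the 52 flank probes. The 3 animals with the deepest loss, ICSI-derived replicate 3, naturally born replicate 4 and the array labelled naturally born replicate 3, were at 0.24, 0.25 and 0.16 there, above 0 like the rest. It was also the 1 core probe at which the 3 noisiest arrays all exceeded the other 7, at 0.31 to 0.38 against 0.11 to 0.25.

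The variable stretch was therefore spanned by 10 probes, from 90115633 to 90193738, a length of 78.1 kb. The gaps to the next probes that did not vary with it were 18.6 kb on the proximal side and 15.7 kb on the distal side, so the stretch can be at most 112 kb long. The next probes out (90223665 to 90223724 and 90240720 to 90240779) ranged from 0.00074 to 0.29 and from -0.12 to 0.19. No flank probe had a range as wide as any of the 10 varying probes. The flank probe with the widest range, 0.77, lay in the proximal flank (89894466 to 89894525), with 0.58 in ICSI-derived replicate 1 and -0.19 in ICSI-derived replicate 3. In the distal flank the widest range was 0.60 (90405747 to 90405806), at the probe with the flagged spot.

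**Figure D2:**
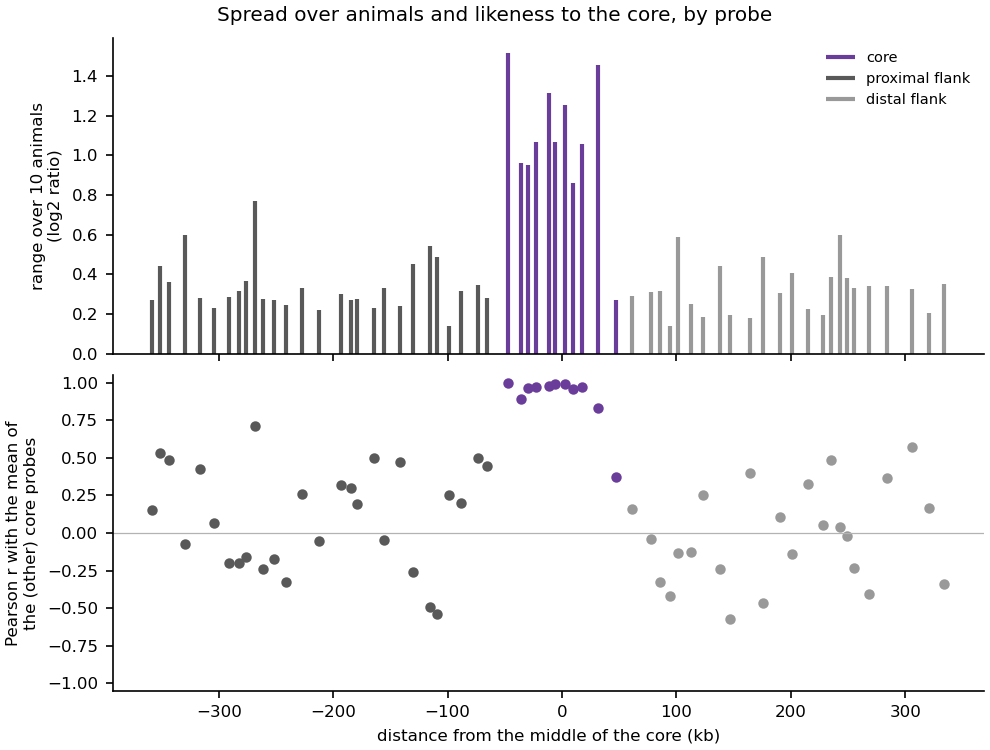
Upper panel, range of the log2 ratio over the 10 animals for each of the 63 probes; lower panel, Pearson correlation over the 10 animals of each probe with the mean of the core probes (leaving out the probe itself where it is in the core), both against distance in kb from the middle of the core. The range rises to between 0.86 and 1.52 at 10 neighbouring probes and falls back to 0.27 at the most distal core probe.

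The 10 varying probes ordered the animals much alike. Each had its highest value in ICSI-derived replicate 1, and each had its lowest in ICSI-derived replicate 3 (7 probes) or naturally born replicate 4 (3 probes). Over the 10 animals, each probe's values correlated with the mean of the other core probes at a Pearson r between 0.83 and 1.00. The distal core probe had an r of 0.37, and the flank probes had values from -0.57 to 0.71. The r of 0.71 belonged to the flank probe with the widest range (89894466 to 89894525). Its highest and lowest animals were ICSI-derived replicates 1 and 3, as for the core mean. These correlations describe the 10 arrays, which the probes share, and the core probes were chosen for this pattern.

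The amplitude differed between probes. The range over animals was 1.52 at 90115633, 0.96 at 90126468, 0.95 at 90132584, 1.07 at 90139665 and 1.32 at 90150924. It was 1.07 at 90156646, 1.26 at 90164928, 0.86 at 90172563, 1.06 at 90179755 and 1.46 at 90193681. The highest single value was 0.91, at 90150924 to 90150983 in ICSI-derived replicate 1, where the lowest animal, ICSI-derived replicate 3, read -0.40. The lowest single value was -0.82, at 90193681 to 90193738 in ICSI-derived replicate 3. The narrowest of the 10 probes (90172563 to 90172622) still ran from -0.53 in naturally born replicate 4 to 0.33 in ICSI-derived replicate 1.

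The probe at 90193681 to 90193738 departed most from the others, with the lowest correlation of the 10. It read 0.64, 0.02, -0.82, 0.53 and -0.35 in ICSI-derived replicates 1 to 5. It read -0.22, -0.46, -0.80, -0.46 and -0.54 in naturally born replicates 1 to 5. ICSI-derived replicate 4 lay close to replicate 1 at this probe, although far below it on the mean of the core. ICSI-derived replicates 2, 3 and 5 and naturally born replicates 1, 3 and 5 each had their lowest core value here.

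Over the 10 varying probes the mean was 0.60 ± 0.18 in ICSI-derived replicate 1 (SD over probes of that animal, as for the values that follow), and all 10 probes lay above 0. It was 0.21 ± 0.11 in ICSI-derived replicate 2, 0.19 ± 0.16 in naturally born replicate 1, 0.10 ± 0.27 in ICSI-derived replicate 4 and 0.05 ± 0.16 in ICSI-derived replicate 5. In these 4 animals 10, 9, 6 and 8 of the 10 probes lay above 0. Naturally born replicates 5 and 2 followed at -0.15 ± 0.17 and -0.26 ± 0.20, with 2 of the 10 probes above 0 in each. The lowest were naturally born replicate 4 at -0.45 ± 0.13, the array labelled naturally born replicate 3 at -0.47 ± 0.18 and ICSI-derived replicate 3 at -0.54 ± 0.15, with no probe above 0.

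On the linear scale these means are 1.51 times the reference in ICSI-derived replicate 1 and 1.16, 1.14, 1.07 and 1.04 times in the next 4 animals. They are 0.901 and 0.836 times in naturally born replicates 5 and 2, and 0.733, 0.724 and 0.686 times in the lowest 3. For scale, the labelled females exceeded the labelled males by 0.85 on chromosome X, leaving out the array labelled naturally born replicate 3. The reference is a mixture of 3 strains, so the ratio gives no whole copy number of its own.

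**Figure D3:**
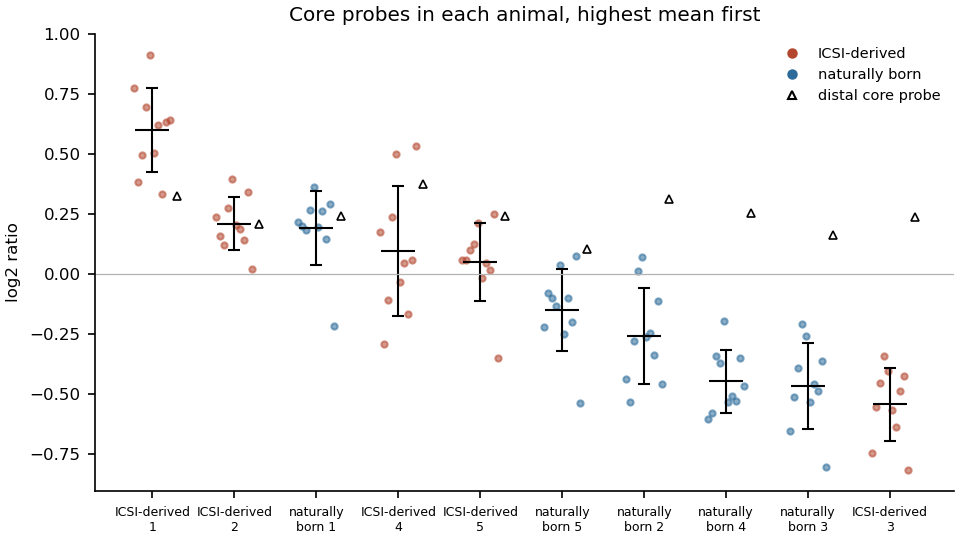
Log2 ratio at the core probes (vertical axis) in each of the 10 animals, ordered by the mean of the 10 varying probes; filled points are those probes, horizontal bars their mean, error bars the SD over probes, and triangles the most distal core probe. The means run from 0.60 to -0.54 with animals of both groups on either side of 0, while the triangles stay between 0.11 and 0.38.

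Steps between neighbours in the order of core means were compared with their spread over the 11 probes. ICSI-derived replicate 1 exceeded ICSI-derived replicate 2 by 0.37 ± 0.16 (SD over probes), at 11 of 11 probes. ICSI-derived replicate 5 exceeded naturally born replicate 5 by 0.19 ± 0.05, again at 11 of 11 probes. Naturally born replicate 2 exceeded naturally born replicate 4 by 0.18 ± 0.12, at 11 of 11 probes. The other 6 steps were smaller than their spread, with the higher animal above at 5 to 10 of the 11 probes. This SD is a spread between probes of the same arrays and not the uncertainty of an animal's level. The comparison is therefore a description and settles the order of no pair of animals. Animals further apart in the order were not compared.

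Naturally born replicate 2, on a noisy array, had values from -0.53 to 0.07 over the 10 varying probes.

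Segmentation, which splits each animal's profile of chromosome 1 into stretches of constant mean and calls those at least 0.25 from 0, found the core in 4 animals. ICSI-derived replicate 1 had a gain of 11 probes, from 90115633 to 90209508, at 0.57. Losses of 10 probes, each from 90115633 to 90193738, were found in ICSI-derived replicate 3 at -0.54, in the array labelled naturally born replicate 3 at -0.47 and in naturally born replicate 4 at -0.45. Without the array labelled naturally born replicate 3, 1 gain and 2 losses were found. All 3 losses were on slide 2, which also held ICSI-derived replicate 4, and none was called on slides 1 and 3. A part of the slide in the losses was not tested. The 3 losses shared both ends, and the gain differed from them only by the distal core probe, which was above 0 in every animal. The other 6 animals had no break at the core, also where the 10 varying probes averaged -0.26 (naturally born replicate 2) or 0.21 (ICSI-derived replicate 2).

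With a doubled penalty (a factor of 6 in place of 3), no gain and 1 loss remained. With a penalty of 3 and other minimum lengths, levels and scalings, the counts were 1 gain and 3 losses in each of 8 settings. The levels of 0.15 and 0.4 could not change them. The called stretches lay more than 0.4 from 0, and in the other animals the stretch over the core averaged near 0.

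The spread between animals was carried by the Cy5 channel, which holds the animal's DNA. Over the 10 varying probes the log2 Cy5 signal, relative to the array's autosomal median in that channel, was 2.33, 1.96, 1.25, 1.83 and 1.82 in ICSI-derived replicates 1 to 5. It was 1.95, 1.49, 1.32, 1.31 and 1.61 in naturally born replicates 1 to 5. The log2 Cy3 signal of the reference lay between 1.73 and 1.79 on all 10 arrays. The range over arrays was thus 1.07 in Cy5 and 0.060 in Cy3. Probe by probe, the Cy5 range was 0.78 to 1.39 and the Cy3 range 0.10 to 0.27. In the flanks the mean signal ranged from 0.038 to 0.078 in Cy5 and from 0.020 to 0.045 in Cy3. Both channels, the reference included, were thus far higher over the 10 varying probes than in the flanks. The reason for this was not tested.

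**Figure D4:**
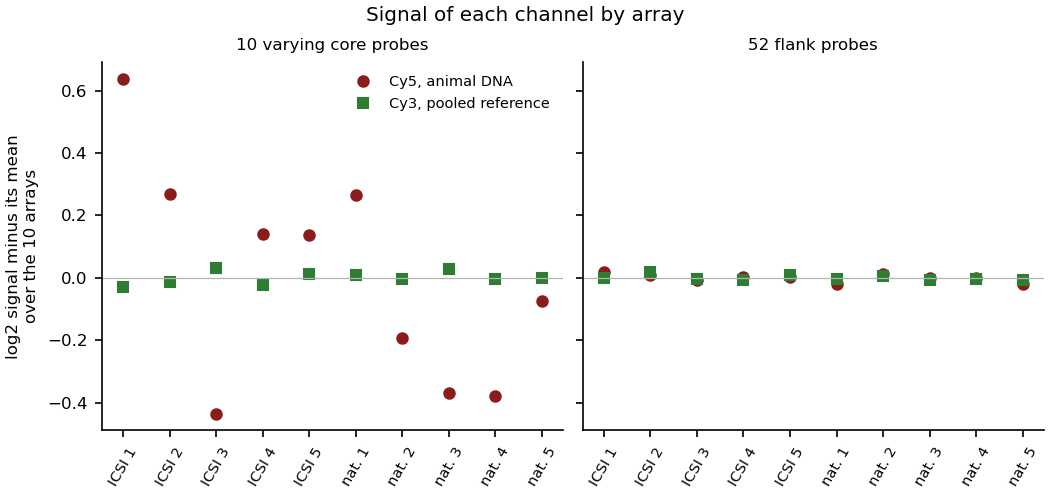
Log2 processed signal of each channel, centred on the array's autosomal median and shown as the difference from its own mean over the 10 arrays (vertical axis), for the 10 varying core probes on the left and the 52 flank probes on the right. The Cy5 signal of the core spreads over 1.07 between arrays and its Cy3 signal over 0.060. Taking the difference from the mean removes the higher level of both channels at the core.

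The main comparison of the study asks whether animals from long-frozen germ cells differ in copy number from naturally born ones. At the core the groups overlapped. The ICSI-derived mean was 0.10 ± 0.38 and the naturally born mean -0.19 ± 0.24 (SD, n = 5 in both), a difference of 0.29, smaller than the SD of the ICSI-derived group. The difference rested in part on single animals: leaving out ICSI-derived replicate 1 gave 0.17, and leaving out ICSI-derived replicate 3 gave 0.43. It was 0.12 without the 3 noisiest arrays, and 0.23 without the array labelled naturally born replicate 3. Within slides 1, 2 and 3 it was 0.40, 0.22 and 0.19, from 2, 2 and 1 animals of each group.

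None of the 63 probes was called different between the groups in a limma fit on all 161460 autosomal probes with group and sex in the model (Benjamini-Hochberg adjusted p under 0.05). The background of that fit was 25 autosomal probes higher in ICSI-derived animals, 0.0155% of those tested, and 7 lower, 0.00434%. At an unadjusted p under 0.05 it was 0 of the 63 probes, against 5274 autosomal probes or 3.27%. The core was chosen by its ratios in these animals, so nothing is read from the fit for its 11 probes. No member was called in any of the 24 other settings of the fit. The most members with an unadjusted p under 0.05 in any setting was 10. The share over all autosomal probes in that setting is not given, so nothing is read from this count.

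The flanks did not differ detectably between the groups. The ICSI-derived mean of the proximal flank was 0.06 ± 0.03 and the naturally born mean 0.04 ± 0.02 (SD, n = 5 in both). A two-sided exact permutation test gave p = 0.23, or 0.345 adjusted over 3 tests (both flanks and the core by sex, whose p is not used). The distal flank averaged -0.0020 ± 0.0082 and 0.010 ± 0.019 (SD, n = 5 in both), and the same exact test gave p = 0.214, or 0.345 adjusted. The smallest p that 5 animals against 5 can give is 0.00794. With normexp background correction the ICSI-derived minus naturally born difference of the distal flank was -0.032 (exact permutation test, p = 0.0159, unadjusted).

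By labelled sex the core values overlapped, with all 4 labelled females inside the range of the labelled males. The core averaged -0.08 ± 0.23 in the labelled females (SD, n = 4) and -0.02 ± 0.41 in the labelled males (SD, n = 6), given as a description because the core was chosen by these values. Females were lower by 0.06 with all animals and by 0.14 once the array labelled naturally born replicate 3 was set aside. The difference turned to 0.06 higher in females without ICSI-derived replicate 1, to 0.04 higher without naturally born replicate 4 and to 0.31 higher within slide 2.

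The distal flank probe at 90300786 to 90300845 was below 0 in all 10 animals and did not follow the core (Pearson r = -0.24). It read -0.50, -0.63, -0.53, -0.19 and -0.60 in ICSI-derived replicates 1 to 5. It read -0.57, -0.37, -0.48, -0.25 and -0.51 in naturally born replicates 1 to 5. Its neighbours on either side, at 90285882 and 90309304, lay between -0.06 and 0.13 and between -0.10 and 0.10. The probe was singled out after its values were seen.

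Probe-to-probe scatter in the flanks was shared among the 3 noisiest arrays. For each array the deviation from the mean of the 7 quieter arrays (without the array itself) was taken at the 52 flank probes. Between pairs of the 3 noisiest arrays these deviations correlated across probes at an r of 0.52 to 0.57, and between pairs of the other 7 arrays at -0.46 to 0.21, with a median of -0.19. Probes are not independent replicates, and these values are a description. The calculation raises r between the 3 noisiest arrays, which have the same mean subtracted. It lowers r between the other 7, where each array of a pair enters the mean subtracted from its partner. The contrast is therefore partly built in, also for the core probes below, and how far was not tested. At 7 of the 52 flank probes and 1 of the 11 core probes, the 3 noisiest arrays all lay on the same side outside the range of the other 7. An example, picked by its values, is the flank probe at 90337988 to 90338047, at -0.44, -0.42 and -0.34 on these arrays and -0.21 to 0.04 on the others. The gain in ICSI-derived replicate 1 and the spread within the core of ICSI-derived replicate 4 were measured on such arrays. Over the 10 varying core probes the same deviations correlated at 0.41 to 0.92 (median 0.57) among the 3 noisiest arrays and at -0.78 to 0.72 (median -0.29) among the other 7. The part of this scatter in the gain was not tested, and the 3 losses were called on quieter arrays.

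Beyond the interval, the next 10 probes on either side showed no such spread, with window means from -0.05 to 0.14 proximally (89707966 to 89792782) and from -0.04 to 0.08 distally (90508977 to 90624442). The first and last members, at 89804464 and 90496554, ranged from -0.12 to 0.15 and from -0.19 to 0.16. The probes just outside, at 89792723 and 90508977, ranged from -0.18 to 0.24 and from -0.14 to 0.09.

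The autosomes outside the interval were also cut into 16132 windows of 10 probes and compared with the core over the 10 animals. Of these, 698 had a range of at least 0.25 over the animals, and 13 a range at least as wide as that of the core. The window most like the core lay on chromosome 9 (105113179 to 105210937, r = 0.89), with a narrow range of 0.26. Of the 5 windows most like it, the 1 with the widest range, 0.53, lay on chromosome 1 (8535550 to 8622103, r = 0.83). There, too, ICSI-derived replicate 1 was the highest animal, at 0.14, while ICSI-derived replicate 3 and naturally born replicates 2, 3 and 4 lay between -0.39 and -0.28. The other windows of the 5 lay on chromosome 1 (11081972 to 11178133, r = 0.89), chromosome 17 (23448042 to 23570900, r = 0.86) and chromosome 9 (38972088 to 39064582, r = 0.82). The 3 windows most opposed to the core lay on chromosome 17 (36784011 to 36918475, r = -0.77, and 34633027 to 34725535, r = -0.75) and on chromosome 5 (98939494 to 99049783, r = -0.76). With 10 animals that share arrays and noise, and with windows picked for their r, these values describe the animals and carry no test.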

How the data were processed

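The deposited scanner files hold spot intensities of both channels. The processed intensity was background-subtracted and dye-normalised by Feature Extraction 10.7.3.1, per the file headers, and the raw spot and local background intensities used for normexp are also in the deposited files. The log10 ratios of the deposited value table equal the scanner's own ratio column, so their direction is animal over reference. The medians of its columns lie between -0.0033 and 0.0033. The submitters' processing notes name Partek 6.5 with no role. The headers of some arrays name mm9, and the rest name no build but give the same probe positions.

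Control spots were left out, log2 ratios of processed signals were averaged by probe and centred on each array's autosomal median, with no loess or quantile step. Group effects were fitted with limma (version 3.58.1, R 4.3.3) after the step was tested on simulated data. Segments came from optimal partitioning (penalty factor 3, at least 5 probes). Single values were compared by exact permutation of the animals, which are separate biological replicates per the labels. Precision is limited by the number of arrays.

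The interval, its core and the lists were chosen with earlier results of these data known. Named probes are all core probes, those next to the core, the widest of each flank and the windows most and least like the core; others were picked by their values, as stated. Probes could not be placed in genes, so the planned gene values and pathway lists were not run. Replicate numbers were not used to pair the animals in the main comparisons. Deviations of same-numbered animals correlated at -0.28 to 0.15. These animals also shared slide and labelled sex, and no value for differently numbered animals is given, so a pairing was not tested.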

Additional observations from a re-analysis of the deposited data

Results flagged for a closer look

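Of 36 sets of 5 values examined (core and flank means, channel signals and the core probes, in each group), 1 held a value standing well away from the rest, where chance would give about 1 in 20 sets. It was the mean Cy3 signal of the flank probes in naturally born replicate 2, at 0.032 against 0.020 to 0.023 in the other naturally born animals. The gap is small beside the differences at the core, and the array is among the 3 noisiest. No core level was flagged, but nothing is read from this for the core, which was chosen by these values. The criterion sets a value's gap against the range of its set. It could hardly flag the gain of ICSI-derived replicate 1 at 0.57, because the loss of ICSI-derived replicate 3 at -0.47 widens that range. The sets share animals and are not independent, so the rate expected by chance is only a rough guide.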

How the results depend on the processing

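The group difference at the core (0.29) kept its direction in all 26 alternatives and stayed within the SD between animals of its value. It ran from 0.17 to 0.43 when each animal was left out, was 0.32 with normexp and 0.31 without the distal core probe (chosen after seeing the data), and was 0.29 with the replicate block, as it must be in a balanced design. Keeping only probes well above background could not change it, because all core probes are. The alternatives reuse the same arrays and a core chosen by these ratios, so they describe the processing and are no support for a group difference. The core of ICSI-derived replicate 1 moved by less than the SD between animals in 11 alternatives. The proximal flank difference turned to -0.0018 with medians over probes and -0.0016 without the 3 noisiest arrays. The distal one passed the threshold only with normexp (-0.032, exact permutation test, p = 0.0159) and turned to 0.015 within slide 3. Leaving out each animal, they ran from 0.0066 to 0.024 and from -0.017 to -0.0054. The difference by sex ran from -0.15 to 0.06 with each animal left out (0.056 when ICSI-derived replicate 1 was dropped, 0.038 when naturally born replicate 4 was). Slide 2 alone gave 0.31. With a penalty factor of 6, gains fell to 0 and losses to 1. Of autosomal probes, 22 to 47 were called higher and 4 to 30 lower with an animal left out. The counts were 16 higher without the noisiest arrays, 17 lower within slide 1, 119 and 107 within slide 2, and 4 lower with the replicate block. The interval had 0 calls throughout. The causes were not tested.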
